A study of Mus musculus with 2 samples.

Results

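The Cyp2b genes are the mouse members of cytochrome P450 subfamily 2B, and 5 of them (Cyp2b9, Cyp2b10, Cyp2b13, Cyp2b19 and Cyp2b23) are listed by symbol among the 24054 genes whose liver expression was measured in Pgrmc1 knockout (KO) and wild-type (WT) mice. All 5 were taken by symbol. Each genotype is represented by 1 RNA-seq library, made from equal masses of liver RNA (2.5 μg from each mouse) pooled over male C57BL/6 mice aged 8 to 12 weeks. KO males (Pgrmc1 -/Y) lack exons 1 and 2 of the X-linked Pgrmc1 gene in the whole body, after floxed mice made in C57BL/6N cells were crossed to a Sox2-Cre line, so a change in liver RNA need not start in the hepatocyte. The labels name no treatment for either group. Because mice were pooled before library preparation, their spread was not measured and no difference below has a replicate check or a p-value.

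CYP2B enzymes oxidise drugs and steroids in the endoplasmic reticulum and take their electrons from the reductase Por. Cyp2b10 is the classic gene induced by phenobarbital in mouse liver. The nuclear receptor CAR (Nr1i3) enters the nucleus when activated, pairs with RXR and binds an enhancer upstream of Cyp2b10, and the related receptor PXR (Nr1i2) shares many of its targets. Cyp2b9 and Cyp2b13 are known as genes of female liver, and Cyp2b19 as an enzyme of skin keratinocytes.

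In these male livers only Cyp2b10 was measured above a few reads, and it was higher in the KO library than in the WT library, by 2.12 times in estimated reads after scaling. Expression is given as TPM, a gene's scaled share of all transcripts after correction for gene length. Cyp2b10 was at 18.24 TPM in KO against 8.70 in WT. The other 4 genes lay between 0.02 and 0.10 TPM in both libraries. The receptor Nr1i3 (83.36 TPM in KO, 72.46 in WT) showed no shift of that size. Neither did the median of 43 other CAR and PXR targets (log2 change -0.03). On that target list, 8 of the 9 other P450 genes were higher in KO. Among genes averaging 1 TPM or more, so were 65.5% of 58 P450 genes and 45.8% of all genes.

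The 5 genes lie in a cluster of Cyp2 genes on chromosome 7 (RefSeq genes, build GRCm38.p6, the assembly also called mm10). Cyp2b10 (Entrez gene 13088) spans 25897658 to 25926624 on the plus strand. Cyp2b13 (13089) spans 26061388 to 26096197 and Cyp2b9 (13094) spans 26173350 to 26210661, both on the plus strand. Cyp2b23 (243881) spans 26665227 to 26686430 on the minus strand, and Cyp2b19 (13090) spans 26757142 to 26772630 on the plus strand.

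The members are close copies, so the first 90 coding bases are shown to let a reader see what separates them in the reads. They are the start of the coding sequence, which lies within exon 1, from GENCODE M21 transcripts on the same assembly, and capitals mark each base that differs from Cyp2b10. Cyp2b9 differed at 21 of the 90 bases, Cyp2b13 at 22 and Cyp2b23 at 23, while Cyp2b9 and Cyp2b13 differed from each other at 1. The positions are chr7:25897685-25897774 for Cyp2b10, chr7:26173434-26173523 for Cyp2b9, chr7:26061520-26061609 for Cyp2b13 (all plus strand) and chr7:26686341-26686430 for Cyp2b23 (minus strand). Cyp2b19 carries 3 additional coding bases and is not shown.
Cyp2b10: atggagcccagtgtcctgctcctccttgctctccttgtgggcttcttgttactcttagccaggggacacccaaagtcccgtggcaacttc
Cyp2b9: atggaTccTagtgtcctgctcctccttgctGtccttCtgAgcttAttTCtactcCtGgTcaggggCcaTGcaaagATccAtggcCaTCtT
Cyp2b13: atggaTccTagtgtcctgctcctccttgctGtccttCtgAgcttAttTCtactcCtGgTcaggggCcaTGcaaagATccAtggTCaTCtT
Cyp2b23: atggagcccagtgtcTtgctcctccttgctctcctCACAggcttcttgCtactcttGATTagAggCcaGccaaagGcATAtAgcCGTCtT

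Over the whole coding sequence (1473 bases, or 1476 in Cyp2b19), Cyp2b9 and Cyp2b13 were 92.7% identical. Cyp2b10 was 88.7% identical to Cyp2b13, 87.8% to Cyp2b9 and 87.6% to both Cyp2b19 and Cyp2b23. A read can match more than 1 copy exactly only where they are identical over its length. Every 100-base window of each gene's coding transcripts, the length of 1 read of a pair, was therefore searched in all GENCODE transcripts. The search counts exact matches only, so it cannot show how reads with mismatches were placed between the copies. None of the 1940 windows of Cyp2b10 occurred in another gene. Of the 1776 windows of Cyp2b13, 165 (9.29%) did, 151 of them in Gm45225 and 21 in Cyp2b9. The shares were 1.18% in Cyp2b9, 0.239% in Cyp2b23 and 0.189% in Cyp2b19. Most windows of Cyp2b9 (1756 of 1777) and of Cyp2b13 (1611 of 1776) also occurred in no other gene.

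The sequence before the start site is shown for the expressed gene and for Cyp2b9 and Cyp2b13, since the latter pair is nearly the same there and neither had more than 3 reads in these livers. RefSeq promoter windows (GRCm38.p6, plus strand) were cut before the first base that either annotation places in the gene, which leaves chr7:25897408-25897619 for Cyp2b10 (212 bases), chr7:26173159-26173349 for Cyp2b9 (191 bases) and chr7:26061245-26061387 for Cyp2b13 (143 bases). Capitals mark matches on either strand to the C/EBP-like word TTGCNNAA, the TATA-like word ATAAAA and the nuclear receptor half-site AGGTCA.
Cyp2b10: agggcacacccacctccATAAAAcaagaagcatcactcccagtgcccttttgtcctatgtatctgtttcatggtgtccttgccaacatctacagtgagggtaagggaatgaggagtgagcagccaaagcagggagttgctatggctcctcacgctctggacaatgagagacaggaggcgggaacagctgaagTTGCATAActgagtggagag
Cyp2b9: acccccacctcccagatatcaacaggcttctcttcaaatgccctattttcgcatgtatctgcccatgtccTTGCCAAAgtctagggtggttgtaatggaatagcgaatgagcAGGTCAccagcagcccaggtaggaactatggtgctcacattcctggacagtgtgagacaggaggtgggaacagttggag
Cyp2b13: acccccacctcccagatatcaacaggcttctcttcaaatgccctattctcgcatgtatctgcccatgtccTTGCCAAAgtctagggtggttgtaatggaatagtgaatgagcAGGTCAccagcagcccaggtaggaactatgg

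Motifs were searched in the 250 bases before the start site that the RefSeq promoter table uses. That site is the RefSeq gene start given above for Cyp2b10, Cyp2b19 and Cyp2b23. It lies 59 bases inside the RefSeq span of Cyp2b9 and 107 bases inside that of Cyp2b13, so these 2 windows hold some gene sequence. In GENCODE, Cyp2b10 starts before that site, so its window also holds some gene sequence and its printed bases stop at 212. A match to ATAAAA in Cyp2b10, 27 to 22 bases before the site, lies in the part not printed. Over these 250 bases, Cyp2b9 and Cyp2b13 differed at 2 bases (99.2% identity), and Cyp2b10 was 68.8% identical to each. The word TTGCNNAA occurred before all 5 members and before 9.56% of 32851 RefSeq promoter windows of that length. In Cyp2b10 it read TTGCATAA and began 58 bases before the RefSeq start site, and Cyp2b19 and Cyp2b23 held the same 8 letters. In Cyp2b9 and Cyp2b13 it read TTGCCAAA and began 180 bases before that site, which is 121 and 73 bases before the start of the RefSeq span. ATAAAA occurred before Cyp2b10, Cyp2b19 and Cyp2b23 (17.0% of all windows), and AGGTCA before the other 4 members but not Cyp2b10 (14.0%). Neither the direct repeat AGGTCANNNNAGNNCA (0.149% of windows) nor the PAR bZIP word TTANNTAA (5.43%) occurred before a member. These are letter matches near the start site and do not reach the upstream enhancer that CAR is known to bind.

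The expression of Pgrmc1, a heme-binding membrane protein, was 0.68 TPM in KO against 949.49 in WT, which fits the labels of the libraries. The authors' second table lists, for 16318 genes, a mean per library that is the estimated number of reads divided by a size factor. Its most frequent value gives the worth of 1 read, and by it the genes of that table held 22086688 estimated reads in KO against 29710410 in WT. Cyp2b9, Cyp2b10 and Cyp2b13 are in that table, and Cyp2b19 and Cyp2b23 are in the TPM table alone.

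Cyp2b10 rested on 438 estimated reads in KO and 279 in WT. The authors' mean was 509.0 in KO and 240.0 in WT, a ratio of 2.12. On the log2 scale that ratio was 1.08, with a 95% Clopper-Pearson interval of 0.86 to 1.31 that covers counting error only and not the spread between mice. The 2 libraries therefore differed by more than read sampling gives, in the direction of higher Cyp2b10 in KO. On the scale used for all genes, log2((KO TPM + 1)/(WT TPM + 1)), which understates the change of low genes, the change was 0.99.

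A gene was counted as up at a fold of at least 1.4 and as down at a fold of at most 0.6 on that scale, among the 11623 genes that averaged 1 TPM or more over both libraries, called expressed below. By this rule 1.21% of genes were up (141 genes) and 0.301% were down (35 genes). The 2 limits are not symmetric, and with a fall at the reciprocal of 1.4, 118 genes (1.02%) were down. Of the 5 Cyp2b genes, 1 (Cyp2b10) passed the filter on low values, and it was up. Its change ranked 46th among the 11623 genes, and 0.396% of them had a rise at least as large. Among the 6235 genes that averaged 10 TPM or more, 0.561% did. The 5th and 95th percentiles of the change among expressed genes were -0.27 and 0.27.

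Cyp2b9 was at 0.08 TPM in KO against 0.03 in WT, from 1 estimated read in KO and 0 in WT. Cyp2b13 was at 0.04 TPM in KO against 0.10 in WT, from 0 reads in KO and 2.04 in WT. Both genes were at or under 3 reads in both libraries, the limit that a count of 0 allows, so no fold is given and no difference was detectable at this depth. Cyp2b19 was at 0.03 TPM in KO against 0.02 in WT. Cyp2b23 was at 0.04 TPM in KO against 0.03 in WT. For these 2 genes no reads are known, and both levels lie under the TPM that 3 reads would give at their transcript length (0.087 in KO and 0.065 in WT for Cyp2b19, 0.11 and 0.082 for Cyp2b23).

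Cyp2b10 alone made up 99.0% of the summed Cyp2b TPM in KO and 98.0% in WT. The sum was 18.43 TPM in KO against 8.88 in WT (log2 change 0.98), so the subfamily total follows the 1 gene. The order of the 4 low genes changed between libraries, and no neighbours in that order can be told apart at these read numbers.

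**Figure D1:**
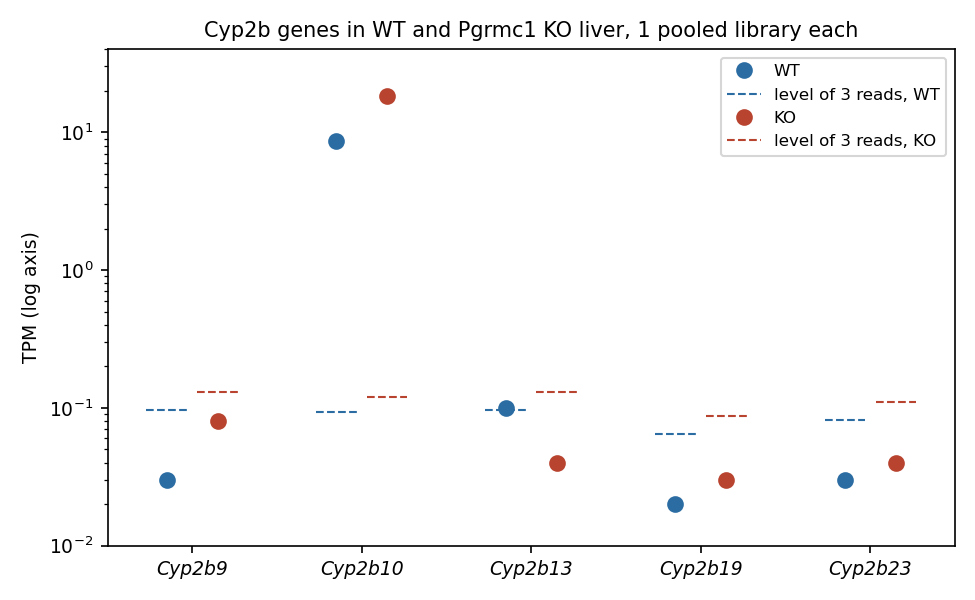
Level of each Cyp2b gene in TPM on a log axis in the WT library (blue) and the KO library (red), with dashed lines at the level that 3 reads would give for that gene. Cyp2b10 lies at 18.24 TPM in KO against 8.70 in WT, and the other 4 genes lie at or near their dashed lines or under them.

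Among the 95 P450 genes in the table (symbols Cyp with a family number, without pseudogenes), Cyp2b10 ranked 43rd by TPM in KO and 48th in WT. It made up 0.0883% of all P450 TPM in KO and 0.0477% in WT, a minor share beside such genes as Cyp3a11 (3952.15 TPM in KO against 2808.29 in WT), a main drug-metabolising P450 of mouse liver. Of the 58 expressed P450 genes, 38 were higher in KO (65.5%, against 45.8% of all expressed genes), 11 were up (19.0%, against 1.21%) and 1 was down (1.72%, against 0.301%), with a median log2 change of 0.07. Cyp2b10 had the 4th largest rise of these 58, after Cyp2c69, Cyp26a1 and Cyp7a1, the last of which was named after its value was seen.

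**Figure D2:**
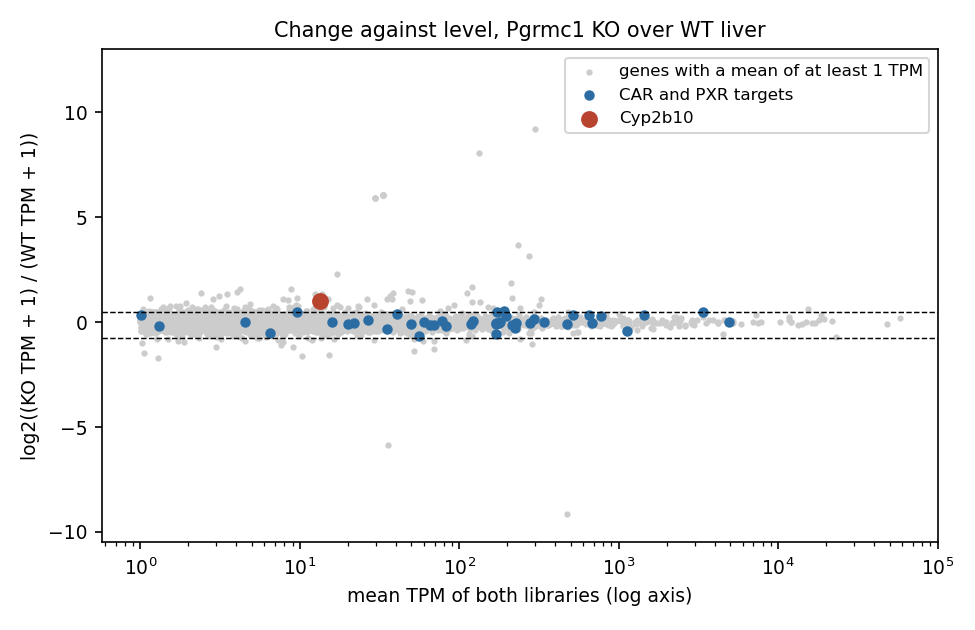
Change of each expressed gene, as log2((KO TPM + 1)/(WT TPM + 1)), against its mean TPM on a log axis, with CAR and PXR targets in blue, Cyp2b10 in red and dashed lines at folds of 1.4 and 0.6. Cyp2b10, at a change of 0.99, lies above every marked target, the highest of which is Cyp2c54 at 0.50.

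The receptors and cofactors that act on Cyp2b10 were compared next, to see whether their RNA moved with it. Nr1i3, which encodes CAR, was at 83.36 TPM in KO against 72.46 in WT, and its ratio of means on the log2 scale was 0.21 (95% counting interval 0.11 to 0.31). Nr1i2, which encodes PXR, was at 50.45 TPM in KO against 59.93 in WT (-0.23, interval -0.32 to -0.15). The 2 receptors thus differed in opposite directions between the libraries, and neither passed the fold rule. Rxra, the partner of both, was at 144.64 TPM in KO against 141.06 in WT. Por was at 179.35 TPM in KO against 178.39 in WT.

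All 36 genes on a list of CAR, its partners, chaperones, phosphatases, kinases and coregulators were expressed. None was up (1.21% of all genes were) or down (0.301%), which for 36 genes is near the share over all genes. Above 0 lay 15 (41.7%, against 45.8% of all expressed genes). The median log2 change was -0.02, against -0.01 over all 11623 genes. The highest was Gadd45b, a stress-induced protein known as a coactivator of CAR (1.23 TPM in KO against 0.78 in WT, log2 change 0.33), on only 18 and 15 estimated reads. The lowest was Foxa2, a pioneer factor of liver (14.70 TPM in KO against 20.96 in WT, -0.48).

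On the list of 48 other CAR and PXR targets, chosen like the other lists with earlier results of these data known, 43 were expressed. Of these, 3 were up (6.98%, against 1.21% of all genes) and none was down (0.301% of all genes), while 18 lay above 0 (41.9%, against 45.8% of all genes). With a fall at the reciprocal of 1.4, 3 were down as well (Gstm3, Cyp2a5 and Gsta1, the last named after its value was seen; 6.98%, against 1.02% of all genes). The 3 that were up were P450 genes just past the threshold of 0.49 on the log2 scale. Cyp2c54 was at 224.75 TPM in KO against 158.09 in WT (0.50), Cyp2c55 at 11.39 and 7.85 (0.49), and Cyp3a11 at 3952.15 and 2808.29 (0.49). With both columns of TPM rescaled to the same sum, 1 of the targets stayed past the rule. All 3 belong to multigene families whose reads RSEM can split between copies.

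By kind of gene, the 9 P450 targets had a median log2 change of 0.35. Of these, 8 were higher in KO, against 65.5% of the 58 expressed P450 genes and 45.8% of all expressed genes. The exception was Cyp2a5, a coumarin hydroxylase (135.95 TPM in KO against 204.33 in WT, -0.58). Of the 10 glutathione transferases, which conjugate electrophiles, 1 was higher in KO and the median was -0.12, with Gstm3 lowest (42.90 TPM in KO against 68.62 in WT, -0.67). The 6 UDP-glucuronosyltransferases had a median of -0.06 and the 5 transporters -0.03. The target genes thus had no common direction, as the P450 and glutathione transferase counts show. The counting interval of the ratio of means lay above 0 for 14 of the 43 targets, below 0 for 13 and across 0 for 16. For 42 of them it lay wholly below that of Cyp2b10, and only the interval of Gadd45b overlapped it. These interval counts were not made over all expressed genes. Cyp2b10 ranked 46th of 11623 by its change, so an interval below its own is not particular to these targets.

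**Figure D3:**
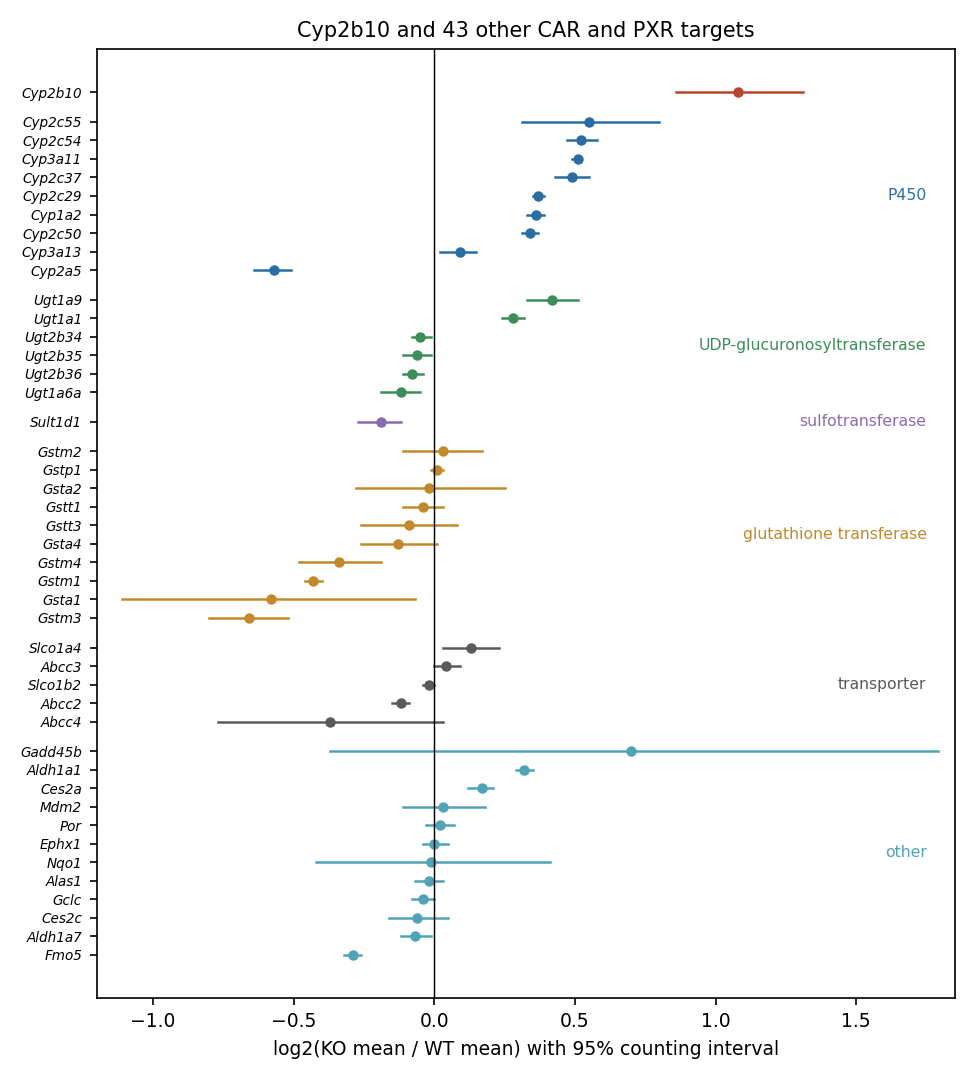
Ratio of the authors' means, log2(KO/WT), for Cyp2b10 (red) and 43 other CAR and PXR targets grouped by kind of gene, with lines for the 95% Clopper-Pearson counting interval. Cyp2b10 lies at 1.08, 8 of 9 other P450 genes lie above 0, and the glutathione transferases reach down to Gstm3 at -0.66.

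The neighbours of the Cyp2b genes on chromosome 7 were read for a change that spans the cluster, which holds 13 Cyp2 genes from Cyp2s1 to Cyp2t4. Cyp2a4, a steroid hydroxylase whose start lies 410 kb from that of Cyp2b10 and between Cyp2b9 and Cyp2b23, was at 0.22 TPM in KO against 70.88 in WT (log2 change -5.88). Cyp2a4 and Cyp2a5 are close copies, so the split of reads between them is uncertain, and their summed level was 136.17 TPM in KO against 275.21 in WT (-1.01). Farther along, Cyp2a12 was at 400.07 TPM in KO against 405.76 in WT, and Cyp2f2, a P450 of lung and liver, at 688.69 and 756.15. Cyp2a22 was at 2.06 and 2.77 TPM. Cyp2s1, Cyp2g1 and Cyp2t4 were under 0.5 TPM in both libraries. Within the cluster, Cyp2b10, Cyp2a4, Cyp2a5, Cyp2a12, Cyp2f2 and Cyp2a22 were expressed. Among these, Cyp2b10 was the only gene up and Cyp2a4 the only gene down by the fold rule. Over all expressed genes, 1.21% were up and 0.301% were down. With a fall at the reciprocal of 1.4, Cyp2a5 was down as well, against 1.02% of all genes. Its level was 135.95 TPM in KO against 204.33 in WT (log2 change -0.58).

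**Figure D4:**
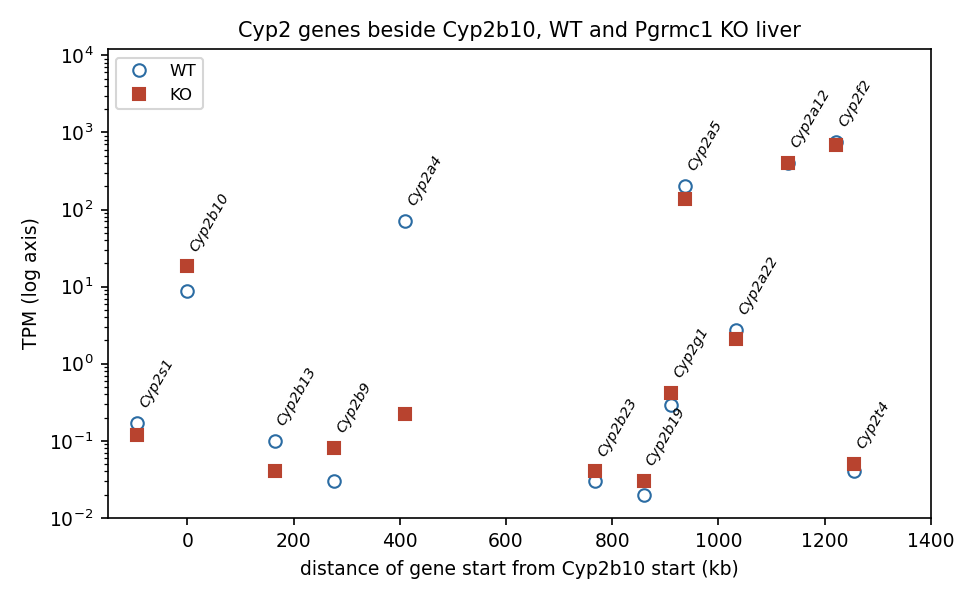
Level in TPM (log axis) of the 13 Cyp2 genes of the cluster against the distance of their start from that of Cyp2b10 in kb, with open circles for WT and filled squares for KO. Cyp2b10 is higher in KO, Cyp2a4 is lower in KO (0.22 TPM against 70.88 in WT), and the 4 other Cyp2b genes lie at 0.10 TPM or less.

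Other gene groups known to move with Cyp2b expression, or with the makeup of the sample, also differed between the libraries. The PAR bZIP factors Dbp, Tef and Hlf, which follow the circadian clock and are known to drive Nr1i3, were at 20.05, 34.99 and 9.60 TPM in KO against 25.92, 44.79 and 10.19 in WT. Their repressor Nfil3 was at 30.10 TPM in KO against 25.65 in WT. Of 17 expressed clock and PAR bZIP genes, 6 lay above 0 (35.3%, against 45.8% of all expressed genes) and 11 below. Of the 17, 2 were up (11.8%, against 1.21% of all genes) and none was down (0.301% of all genes). The 2 were the core activators Arntl (16.42 TPM in KO against 10.53 in WT, 0.60) and Npas2 (1.52 and 0.76, 0.52). The hour at which the livers for RNA-seq were collected was not found in their labels or methods, and the part of these genes in the Cyp2b10 result was not tested.

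Of 22 expressed acute phase genes, mostly secreted products of the liver in inflammation, 19 lay above 0 (86.4%, against 45.8% of all expressed genes). Of these genes 5 were up (22.7%, against 1.21%), namely Saa1, Saa2, Saa3, Orm2 and Lcn2, none was down (0.301% of all genes), and the median log2 change was 0.24. Their summed level was 25779 TPM in KO against 22220 in WT. Saa2 showed the largest change of the list, with 431.73 TPM in KO against 32.58 in WT (3.69). Their part in the Cyp2b10 result was not tested.

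Genes of sex-biased liver expression are of interest because Cyp2b9 and Cyp2b13 are female-biased. Of 24 other female-biased genes, 9 were expressed. Of these, 1 was up (11.1%, against 1.21% of all genes), Cyp2c69, at 13.66 TPM in KO against 3.90 in WT. Another 1 was down (11.1%, against 0.301% of all genes), Cyp2a4, whose split of reads with Cyp2a5 is uncertain. Of 21 male-biased genes, 12 lay above 0 (57.1%, against 45.8% of all expressed genes) and the median log2 change was 0.05. Of the 21, 3 were up (14.3%, against 1.21% of all genes), namely Bcl6, Moxd1 and Susd4. None was down (0.301% of all genes). With a fall at the reciprocal of 1.4, 1 was down (4.76%, against 1.02% of all genes). It was Mup20, the lowest of the list, at 17437.62 TPM in KO against 28502.59 in WT (-0.71). The summed level of the male-biased list was 42610 TPM in KO against 51745 in WT. Cyp2b9 and Cyp2b13 had no more than 3 reads in either library.

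The labelled tissue was checked on cell type markers. All 8 hepatocyte markers were expressed, and 3 of them lay above 0 (37.5%, against 45.8% of all expressed genes). CAR targets are known to be strongest around the central vein. All 10 pericentral markers were higher in KO, against 45.8% of all expressed genes. Their median was 0.13 and their summed level 7747 TPM in KO against 7112 in WT. Of the 10, 1 was up (Tbx3), against 1.21% of all genes, and none was down (0.301% of all genes). Cyp1a2 is on this list and on that of CAR and PXR targets, so the lists are not independent. Of the 10 periportal markers, 9 were lower in KO (median -0.19, summed level 5492 and 6421 TPM). The other 1 was higher, against 45.8% of all expressed genes. In pooled bulk RNA, fewer cells of a type and less RNA per cell cannot be told apart, and the part of these markers in the Cyp2b10 result was not tested.

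All 8 Kupffer cell markers were higher in KO (100%, against 45.8% of all expressed genes). Their median was 0.17 and their summed level 277.6 TPM in KO against 240.7 in WT. Among expressed markers, 6 of 8 stellate, 7 of 8 endothelial and 3 of 4 cholangiocyte markers were lower. The shares above 0 were 25.0%, 12.5% and 25.0%, against 45.8% of all expressed genes. Over all 11623 expressed genes, 6257 were also lower, and these lists hold few genes. None of the markers of these 4 cell types was up or down by the fold rule. With a fall at the reciprocal of 1.4, Rgs5, Lyve1 and Epcam were down, and no Kupffer cell marker was. These genes were 1 of 8 stellate (12.5%), 1 of 8 endothelial (12.5%) and 1 of 4 cholangiocyte markers (25.0%), against 1.02% of all genes. Their log2 changes were -0.53, -0.60 and -0.59. All markers of these liver cell types had more than 3 reads in at least 1 library. The 6 keratinocyte markers in the table, the known cells of Cyp2b19, summed to 1.08 TPM in KO against 1.19 in WT. Of these markers, 2 are in the table of read means, and none was expressed by the same rule.

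**Figure D5:**
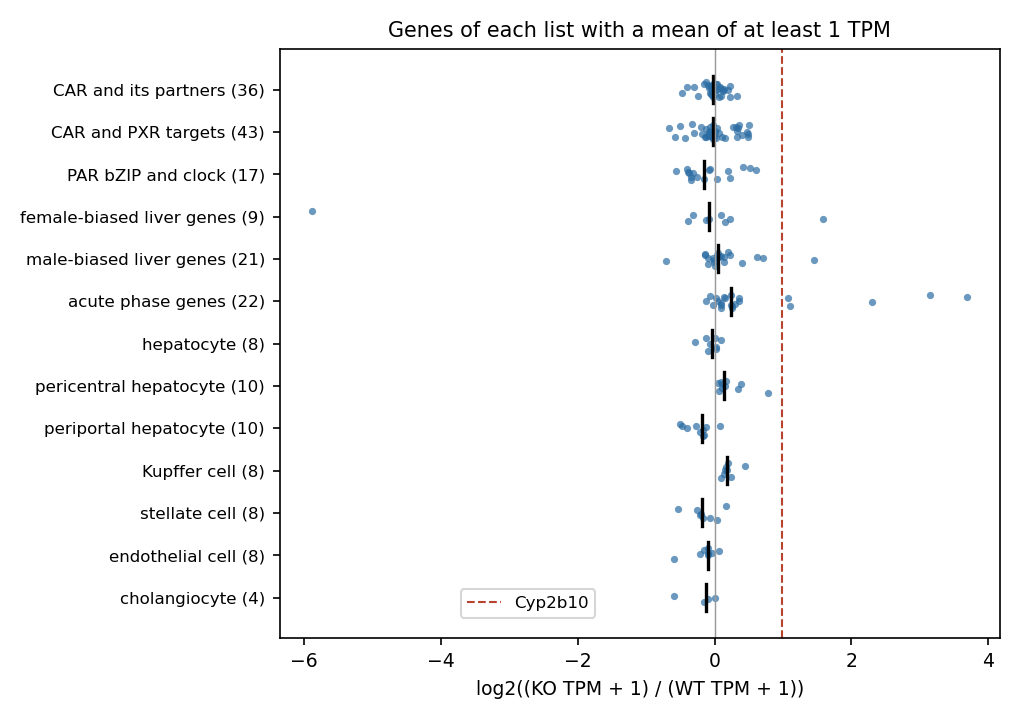
Change of each listed gene that was expressed, as log2((KO TPM + 1)/(WT TPM + 1)), by list with the number of genes in brackets, black bars at the list medians and a dashed line at Cyp2b10 (0.99). List medians lie between -0.19 for periportal and 0.24 for acute phase genes.

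The genes whose levels were closest to those of Cyp2b10 were found by Euclidean distance over log2(TPM + 1) in the 2 libraries, which makes the likeness one of level and fold over 2 values only. The nearest was Saa3, an acute phase protein (20.72 TPM in KO against 9.30 in WT, distance 0.195). It was followed by Cyp26a1, which breaks down retinoic acid (20.13 and 7.38 TPM, 0.251), and Socs2, a feedback inhibitor of growth hormone signalling (17.97 and 10.58 TPM, 0.256). Susd4, a complement inhibitor (15.71 and 9.90 TPM, 0.264), and Gm7120 (15.00 and 9.33 TPM, 0.281) came next. All 5 were up by the fold rule (1.21% of all genes were), which follows largely from choosing them by nearness to Cyp2b10, itself up.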

How the data were processed

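The authors aligned paired reads of 100 bases from stranded total RNA libraries to mm10 with RSEM 1.2.09 and Bowtie, after base calling files were converted with CASAVA 1.8.2 (names and versions per the submitters' processing notes). The deposited TPM are posterior means for 24054 genes, with totals of 1005325 (KO) and 994702 (WT). The deposited library means of 16318 genes are a signal, the estimated reads divided by a size factor. The 4 other columns of that table hold the authors' own comparison (posterior probabilities and fold changes from EBSeq) and were not used. The means were assigned to KO and WT from the order in the comparison's name and the study's headings.

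Reads were recovered by dividing each mean by the worth of 1 read (1.16 in KO and 0.860 in WT). Within 0.02 of a read, 79.4% (KO) and 75.8% (WT) of the values came out whole, zeros included, since RSEM splits reads between genes, so no count test was run. As genotypes were not replicated, no p-value is given. Intervals are Clopper-Pearson intervals at 95% from rounded reads, and intervals and floors cover counting error only. Computations used Python 3.11.15, numpy 2.4.6, pandas 2.3.3, scipy 1.17.1, Biopython 1.88 and matplotlib 3.10.9, and the fold calls and intervals were tested on simulated data.

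The members and gene lists were chosen with earlier results of these data known. Named genes come mainly from the members, Pgrmc1, the genes of the Cyp2 cluster, 8 fixed regulators and the 5 genes nearest to Cyp2b10. From each list, those past the fold rule and its highest and lowest were also chosen. Not every highest or lowest gene of a list is named above. All 5 members matched RefSeq and GENCODE by symbol. Alternatives were another pseudocount, filters, fold thresholds, scalings and the authors' means in place of TPM. Protein sequences and the upstream enhancer were not analysed here.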

Additional observations from a re-analysis of the deposited data

How the results depend on the processing

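The Cyp2b10 change stayed between 0.97 and 1.08 on the log2 scale over 5 alternatives (another pseudocount, the authors' means and 3 scalings). That of summed Cyp2b TPM stayed between 0.96 and 1.07 over the same 5. An interval for Cyp2b10 from TPM and gene length was 0.85 to 1.29. Its reads were scaled to the authors' means and the change itself was not recomputed, so it is no independent check. The median of CAR and PXR targets stayed between -0.05 and -0.02, and that of CAR and its partners between -0.04 and 0.01, above 0 only with the authors' means. The number of genes past the fold rule, 176, became 350 with a pseudocount of 0.1 TPM, 376 with the authors' means, 259 (141 up and 118 down) with a fall at the reciprocal of 1.4, 79 among genes averaging 10 TPM or more and 58 with folds of 2 and 0.5. The number of CAR and PXR targets past it, 3, became 5 with the authors' means, 1 with both columns rescaled to the same sum, 0 with folds of 2 and 0.5, and 6 (3 up and 3 down) with that limit for a fall. The thresholds and filters set these counts by construction, and for the others the cause was not tested. Cyp2b pseudogenes in the TPM table and genes sharing a window with Cyp2b10 numbered 0, so sums with them were not run. No paired analysis was possible because the KO and WT groups hold 1 library each. Depth limits Cyp2b9, Cyp2b13, Cyp2b19 and Cyp2b23, for which a difference between a few reads could not be seen.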

Other observations

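TPM values above 0 do not mean that reads were found. Genes with 0 estimated reads in the second table had a median of 0.05 TPM in KO (711 genes) and 0.04 TPM in WT (485 genes). After multiplication by transcript length, the median TPM of genes with 1, 2 and 3 reads was 1.90, 2.97 and 3.96 times that of genes with 0 reads in KO, and 1.94, 2.90 and 4.10 times in WT. A posterior mean TPM at these levels thus stood near the value of 1 read more than was counted. The levels of Cyp2b9 in WT (0.03 TPM) and of Cyp2b13 in KO (0.04 TPM) are of this kind, with 0 reads each.

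Of the 7736 genes that only the TPM table lists, Cyp2b19 and Cyp2b23 among them, 77.4% had a higher TPM in KO than in WT and 14 genes had a lower one. The median ratio of KO to WT TPM was 1.30 among the 6543 of them above 0 in both libraries, and 0.990 among the 11623 genes averaging 1 TPM or more. The slightly higher KO values of Cyp2b19 and Cyp2b23 are shared by most genes of that set.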
